A study of Mus musculus with 47 samples.

Results

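Adrenalectomy (ADX, surgical removal of both adrenal glands) was compared with sham surgery in the skeletal muscle of brain-muscle clock mice at ZT0, the time of lights on. The comparison uses 8 of the 47 libraries of the series, all RNA from the tibialis anterior, the fast muscle at the front of the lower leg. They are the 4 libraries labelled RE-RE ADX at ZT0 and the 4 labelled RE-RE sham at ZT0, and each is 1 animal's muscle. All 8 mice were female C57BL/6 animals fed ad libitum, with the Bmal1(stopFL/stopFL) allele together with Syt10-Cre(-/tg) and Hsa-Cre(-/tg). In these RE-RE mice the blocked clock gene Bmal1, listed here as Arntl, is released by Cre recombinase in the brain through Syt10-Cre and in skeletal muscle fibres through Hsa-Cre. Other tissues, and the cells of the muscle other than fibres, keep the block in ADX and sham mice alike. ADX 1 to 4 were 11, 15, 14 and 8 weeks old, and sham 1 to 4 were 14, 11, 9 and 13 weeks old. Per the series' design text, the adrenals were taken out one after the other, saline with glucose was given to drink, and muscle was taken at least 2 weeks later. Loss of the adrenal glands removes corticosterone, aldosterone and adrenaline together, and these cannot be told apart here. For comparison, 3 WT ADX (12 to 15 weeks) and 4 WT sham (9 to 11 weeks) libraries at ZT0 were used, and 4 RE-RE ADX (12 to 18 weeks) and 4 RE-RE sham (11 to 14 weeks) libraries at ZT12, lights off.

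Corticosterone, the main glucocorticoid of mice, is released in a daily rhythm that peaks around the onset of activity. It binds the glucocorticoid receptor Nr3c1, which enters the nucleus and acts on target genes through palindromic DNA elements. In muscle, glucocorticoids are known for shifting fuel use from glucose to fatty acids and for raising genes of protein breakdown, while adrenaline acts through beta-adrenergic receptors and cyclic AMP. The muscle clock is a loop in which Arntl and Clock switch on Per, Cry and Nr1d genes from E-box elements, and the Nr1d receptors in turn repress Arntl.

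Read depth was estimated at 19.8 to 35.6 M reads in the 8 libraries. The estimate rests on whole-read steps between 10 to 20 low values per library. Sham 1, 3 and 4 held up to 79 exactly equal values under 1 FPKM in pairs and ADX 2 and 3 held 29, whereas sham 2, ADX 1 and ADX 4 shared at most 1 with any library. Libraries that share exact values may not be independent of each other, and p-values over them may then be too small. The labels do not say more on how replicates were made than 1 library per mouse. Of the 12000 tested genes, 218 had at least 1 of the 8 libraries listed at 0, and whether such a 0 is a low level or a failed estimate was not tested. Libraries were alike within groups, with pairwise correlations over genes of 0.985 to 0.995 in ADX and 0.975 to 0.987 in sham. The 7 markers of skeletal muscle summed to 50775 to 53065 FPKM in ADX muscle and 52192 to 56897 FPKM in sham muscle.

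In RE-RE mice at ZT0, more genes fell than rose after ADX, and most changes were small. Of 12000 genes tested with limma and Benjamini-Hochberg adjustment, 654 (5.45%) passed an adjusted p under 0.05. Of these 467 (3.89%) fell, with a median fold of 0.852, and 187 (1.56%) rose, with a median fold of 1.36. A change of at least 2-fold was fitted for 50 of them, 41 higher and 9 lower, but 31 of these 50 had at least 1 library listed at 0. The ADX and sham values did not overlap for 522 of the 654, and for 1578 (13.2%) of all tested genes. Bulk RNA does not show whether fewer cells of a type or less RNA per cell lies behind a lower value.

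The number of calls depended on single libraries. It was 168 without sham 1 and 1022 without sham 3, and it was 348, 304, 328 and 377 without ADX 1, 2, 3 and 4 in turn. Without sham 2 or sham 4 it was 463 or 491. Leaving out sham 2, ADX 1 and ADX 4, which shared at most 1 exact value with any library, gave 85 calls, 82 of them among the 654. Sham 2, ADX 1 and ADX 4 are called below the 3 libraries that share no exact values. The fit without them keeps, of the 8, only libraries that do share exact values. A call kept there is therefore not shown to be free of dependence between libraries. Fitting the 8 libraries alone gave 4 calls, of which 2 (Mir7005 and Snord88c) were among the 654. No gene described below passed in that fit. In it 649 of the 654 genes had an unadjusted p under 0.05. That fit uses the same 8 libraries and the same log2 changes, so this is no separate support for the calls. In total 118 of the 654 genes, 33 higher and 85 lower, passed in all 8 fits that left out 1 library, and 58 of them also passed without those 3. Genes that lost their call on leaving out 1 library are named as such with their values.

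Genes of fatty acid uptake and oxidation were lower in ADX muscle. Of the 20 genes on that list, 8 fell and 0 rose, where 3.89% and 1.56% of all tested genes did. A negative change was found for 18, with a median log2 change of -0.28 against -0.012 over all tested genes. Lpl (chr8:68880491-68907448 on GRCm38, forward strand), the lipoprotein lipase that frees fatty acids from circulating triglyceride, had 75.4, 83.6, 87.5 and 100.3 FPKM in ADX 1 to 4, against 123, 149.6, 154 and 116 FPKM in sham 1 to 4. The 2 groups did not overlap and every ADX library lay below every sham library (log2 change -0.64 ± 0.12 (SE), adjusted p = 0.00268). The call of Lpl was kept in every fit that left out 1 library, and its adjusted p was 0.0555 without the 3 libraries that share no exact values. Fabp3, which carries fatty acids through the cytosol of oxidative muscle, had 133, 94.9, 169.6 and 151 FPKM in ADX 1 to 4, against 187, 318, 320.0 and 191 FPKM in sham 1 to 4. ADX 2 was the lowest library and sham 2 and 3 stood far above sham 1 and 4 (log2 change -0.87 ± 0.21 (SE), adjusted p = 0.0113), and without ADX 2 the adjusted p was 0.0642. Its reads may be shared with the pseudogene Fabp3-ps1. Pnpla2, the triglyceride lipase of the lipid droplet, had 48.4, 40.0, 62.4 and 53.1 FPKM in ADX 1 to 4, against 74.5, 83.8, 71.0 and 51.6 FPKM in sham 1 to 4. Its groups overlapped through ADX 3, ADX 4 and sham 4, and it passed (log2 change -0.46 ± 0.13 (SE), adjusted p = 0.0337) but lost its call without sham 1, sham 2 or ADX 1, 2 or 4.

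Of the acyl-CoA dehydrogenases of the mitochondrion on the list, Acadl and Acadm passed with smaller changes. Acadvl overlapped between the groups and did not pass (log2 change -0.20, adjusted p = 0.179). Acadl, the long-chain acyl-CoA dehydrogenase, had 143, 118, 161 and 141 FPKM in ADX 1 to 4, against 179, 196, 190.5 and 164 FPKM in sham 1 to 4, without overlap (log2 change -0.38 ± 0.089 (SE), adjusted p = 0.0106), and its adjusted p was 0.0648 without ADX 2. Acadm, the medium-chain enzyme, averaged 69.9 ± 7.09 FPKM in ADX muscle and 85.8 ± 7.94 FPKM in sham muscle (SD, n = 4 each) (log2 change -0.30 ± 0.079 (SE), adjusted p = 0.0242). The ADX values of Acadm ended at 78.0 FPKM in ADX 3, above the lowest sham value of 75.4 FPKM in sham 4, and the call was lost without sham 1, sham 2 or ADX 2. Acot2, a mitochondrial acyl-CoA thioesterase, had 3.01, 3.45, 3.70 and 3.26 FPKM in ADX 1 to 4, against 4.66, 9.08, 10.5 and 4.48 FPKM in sham 1 to 4, again with sham 2 and 3 high (log2 change -0.997 ± 0.30 (SE), adjusted p = 0.0424). Its call was lost on leaving out any of the 8 libraries apart from sham 4, at adjusted p values of 0.052 to 0.122.

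Hadha and Hadhb, which encode the subunits of the mitochondrial trifunctional protein that carries out the last steps of long-chain beta-oxidation, fell together. Hadha (chr5:30118304-30155162, reverse strand) had 49.2, 45.1, 52.5 and 51.3 FPKM in ADX 1 to 4, against 60.1, 67.2, 60.5 and 57.5 FPKM in sham 1 to 4 (log2 change -0.31 ± 0.07 (SE), adjusted p = 0.00859). Hadhb (chr5:30155248-30184593, forward strand) had 24.0, 19.7, 24.6 and 22.7 FPKM in ADX 1 to 4, against 28.2, 29.2, 26.7 and 25.4 FPKM in sham 1 to 4 (log2 change -0.27 ± 0.066 (SE), adjusted p = 0.0139). For both, the ADX and sham values did not overlap, and ADX 2 was lowest. The call of Hadhb was lost without sham 1 (adjusted p = 0.0589) or ADX 2 (0.0835), while that of Hadha was kept in every fit that left out 1 library and lost without the 3 libraries that share no exact values (0.109). The genes lie head to head, and the promoter window of Hadhb, chr5:30155003-30155302 on GRCm38.p6 from RefSeq (forward strand, 250 bases before to 50 after the start), is shown because the 2 genes share it. The capitals mark the 228 bases that are also in the promoter window of Hadha on the other strand.
Hadhb: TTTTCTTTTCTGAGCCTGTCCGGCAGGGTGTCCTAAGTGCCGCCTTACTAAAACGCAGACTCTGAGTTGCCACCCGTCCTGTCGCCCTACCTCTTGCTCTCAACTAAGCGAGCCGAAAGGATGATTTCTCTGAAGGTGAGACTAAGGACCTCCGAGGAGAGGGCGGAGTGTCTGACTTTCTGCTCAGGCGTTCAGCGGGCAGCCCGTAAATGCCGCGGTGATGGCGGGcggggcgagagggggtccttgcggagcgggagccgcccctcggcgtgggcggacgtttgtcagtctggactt

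**Figure D1:**
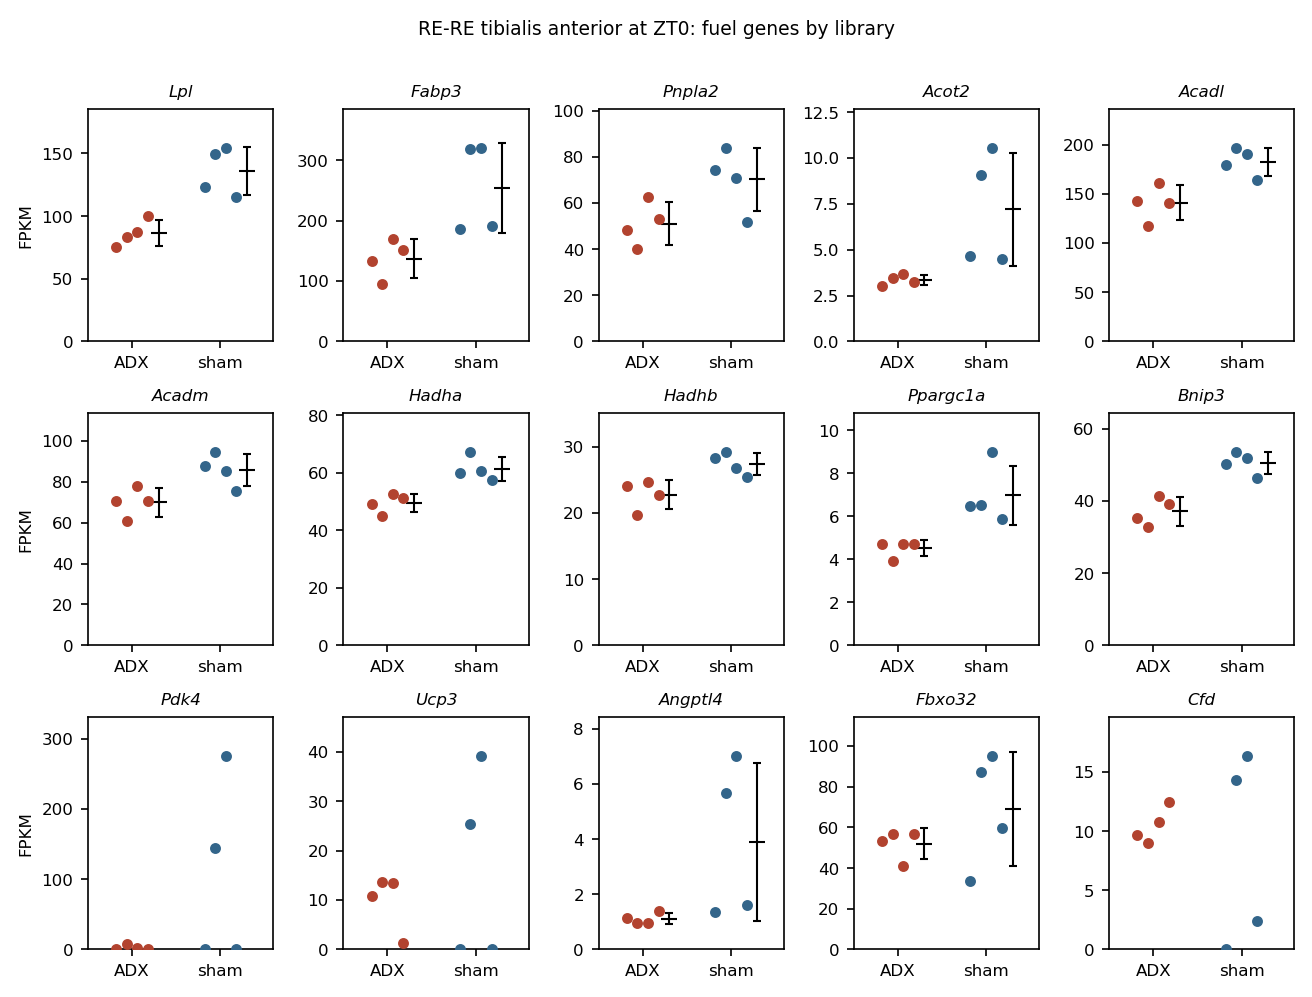
FPKM (linear y axis, each panel on its own scale) of 15 genes in the 4 RE-RE ADX and 4 RE-RE sham libraries at ZT0, with 1 point per library and a cross for the mean ± SD, which is not drawn where a library is listed at 0. The 4 ADX points of Lpl, Fabp3, Acadl, Hadha, Hadhb, Ppargc1a and Bnip3 all lie below the 4 sham points, whereas Pdk4, Ucp3, Angptl4 and Cfd split the sham libraries.

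The size of the fatty acid result depended on the libraries used. The count of 8 was 2 without ADX 2, 4 without sham 1, 5 without sham 2 and 0 without the 3 libraries that share no exact values or in the fit of the 8 libraries alone. The lipolysis, import and oxidation genes did not all move: Cd36, a fatty acid transporter, had a log2 change of -0.29 (adjusted p = 0.117) and Cpt1b, which admits fatty acids to the mitochondrion, had -0.19 (adjusted p = 0.446). Another 12 genes of peroxisomal and accessory fatty acid oxidation were put together as a family after values had been seen. Of these, 7 fell and 0 rose, where 3.89% and 1.56% of all tested genes did. The 7 include Eci2, an enoyl-CoA isomerase (-0.39), and Acadsb, the short and branched chain dehydrogenase (-0.35). Both kept their calls in every fit that left out 1 library. That count was 3 without sham 1, ADX 2 or ADX 4, and 4 without sham 2, ADX 1 or ADX 3. It was 0 without the 3 libraries named above or in the fit of the 8 libraries alone. All 3 genes of the electron transfer flavoprotein system, which passes electrons from acyl-CoA dehydrogenases to the respiratory chain, fell. Etfa had a log2 change of -0.31 (adjusted p = 0.00217), Etfb -0.22 and Etfdh -0.40, and 1 of the 3 (Etfa) passed without ADX 2 or without the 3 libraries that share no exact values. Etfb also lost its call without sham 2, sham 3, ADX 1 or ADX 4. In the fit of the 8 libraries alone 0 of the 3 passed.

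The sham group was split for several fasting-responsive genes. Pdk4, the kinase that blocks pyruvate oxidation and so spares glucose, had 0, 7.92, 2.54 and 0 FPKM in ADX 1 to 4, against 0, 144, 275 and 0 FPKM in sham 1 to 4. Sham 2 and 3, the 11 and 9 week old mice, were high, whereas sham 1 and 4, of 14 and 13 weeks, were listed at 0. Among ADX mice the order of ages was the reverse. ADX 1 and 4, listed at 0, were 11 and 8 weeks old, and ADX 2 and 3 were 15 and 14 weeks old. Ucp3, the mitochondrial uncoupling protein of muscle, had 10.9, 13.5, 13.4 and 1.27 FPKM in ADX 1 to 4, against 0, 25.4, 39.1 and 0 FPKM in sham 1 to 4. The same 2 sham mice were high, and the ADX values lay between them and sham 1 and 4. Angptl4, a secreted inhibitor of lipoprotein lipase, had 1.15, 0.957, 0.946 and 1.38 FPKM in ADX 1 to 4, against 1.36, 5.67, 7.01 and 1.59 FPKM in sham 1 to 4, with sham 2 and 3 again alone at the top. Neither Pdk4 (adjusted p = 0.63) nor Angptl4 (0.492) nor Ucp3 (0.22) passed the test. The part of age in this split was not tested. In the other groups Pdk4 was 174 to 274 FPKM in WT ADX and 92.2 to 365 FPKM in WT sham at ZT0, and 23.5, 0, 0 and 4.73 FPKM in RE-RE ADX against 50.8 to 266 FPKM in RE-RE sham at ZT12.

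Of the regulators of mitochondrial content, Ppargc1a (chr5:51454250-51567726, reverse strand), the coactivator PGC-1alpha, had 4.73, 3.94, 4.70 and 4.69 FPKM in ADX 1 to 4, against 6.49, 6.53, 8.98 and 5.89 FPKM in sham 1 to 4. The groups did not overlap (log2 change -0.61 ± 0.11 (SE), adjusted p = 0.00217), and the call was kept in every fit that left out 1 library. Bnip3 (chr7:138890836-138909519, reverse strand), a receptor on the outer mitochondrial membrane that marks mitochondria for autophagy, had 35.1, 32.7, 41.4 and 39.2 FPKM in ADX 1 to 4, against 50.1, 53.5, 51.8 and 46.3 FPKM in sham 1 to 4. Its groups were also apart, with a smaller spread (log2 change -0.45 ± 0.063 (SE), adjusted p = 1.15e-04). Neither gene passed in the fit of the 8 libraries alone. Both fell in WT ADX against WT sham at ZT0 as well (log2 changes -0.61 and -0.48) and in RE-RE ADX against RE-RE sham at ZT12 (-0.43 and -0.38). Bnip3 was among the genes with the smallest adjusted p, and its promoter is shown, at chr7:138909457-138909756 (GRCm38.p6, reverse strand), with the E-box CACGTG, the sequence bound by the Arntl and Clock pair, in capitals.
Bnip3: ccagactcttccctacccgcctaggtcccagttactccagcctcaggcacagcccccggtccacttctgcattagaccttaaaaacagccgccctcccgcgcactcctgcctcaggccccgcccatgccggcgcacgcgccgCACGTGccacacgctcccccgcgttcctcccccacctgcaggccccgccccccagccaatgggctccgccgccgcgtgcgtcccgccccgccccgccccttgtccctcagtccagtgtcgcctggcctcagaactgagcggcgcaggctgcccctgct
The E-box begins 108 bases before the start of transcription. An E-box was present in 13.33% of 435 promoter windows of genes that fell, 9.52% of 168 windows of genes that rose and 10.15% of the 10961 windows of tested genes. The search counted either strand of CACGTG, and a match of letters does not show binding.

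Other genes among the largest falls serve metabolism. Ugp2, which makes the UDP-glucose that builds glycogen, had 197, 188, 208 and 208 FPKM in ADX 1 to 4, against 323, 289, 359 and 240.1 FPKM in sham 1 to 4, so that the highest ADX library lay below the lowest sham library (log2 change -0.58 ± 0.12 (SE), adjusted p = 0.00367). Retsat, the retinol saturase, had 8.28, 8.70, 9.93 and 8.85 FPKM in ADX 1 to 4, against 12.0, 15.4, 16.6 and 11.5 FPKM in sham 1 to 4 (log2 change -0.62 ± 0.13 (SE), adjusted p = 0.00641). Slc25a36, a mitochondrial carrier of pyrimidine nucleotides, had 4.54, 3.10, 4.37 and 4.73 FPKM in ADX 1 to 4, against 8.71, 6.00, 5.02 and 6.84 FPKM in sham 1 to 4 (log2 change -0.65 ± 0.14 (SE), adjusted p = 0.00563). In Slc25a36 sham 3 lay just above the highest ADX value, while in Retsat the groups were further apart. Ide, the insulin-degrading enzyme, was lowest in ADX 3 and highest in sham 1. It had 44.5, 34.5, 31.2 and 39.7 FPKM in ADX 1 to 4, against 68.5, 51.9, 49.0 and 53.1 FPKM in sham 1 to 4 (log2 change -0.57 ± 0.12 (SE), adjusted p = 0.00447). Acss1, the mitochondrial acetyl-CoA synthetase, fell by 0.58 on the log2 scale (adjusted p = 0.0195) and lost its call without sham 2, ADX 1 or ADX 2. Tceal5, Armcx4 and Rasl2-9 completed the 12 largest falls, counted among genes with a mean of at least 1 FPKM in ADX or sham muscle, no overlap, no library at 0 and no predicted symbol, at -0.60, -0.53 and -0.63, and each lost its call on leaving out at least 1 library. Tceal5 lost it without ADX 3, Armcx4 without sham 1, 2 or 4 or ADX 2 or 3, and Rasl2-9, a close copy of Ran whose reads are uncertain, without 7 of the 8.

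Ccn2 (chr10:24595442-24598683, forward strand), the matricellular growth factor CTGF, rose most among called genes that were above 0 in all 8 libraries and have no predicted symbol. It had 5.45, 6.05, 4.19 and 5.74 FPKM in ADX 1 to 4, against 0.992, 1.03, 2.65 and 0.728 FPKM in sham 1 to 4. Sham 3 was the highest sham library and still lay below all ADX libraries (log2 change 2.15 ± 0.40 (SE), adjusted p = 0.00217). The 4 RE-RE sham libraries were also below the WT libraries, which held 4.86 to 6.06 FPKM in WT ADX and 4.12 to 6.16 FPKM in WT sham. Without the 3 libraries that share no exact values the adjusted p of Ccn2 was 0.058. Dusp7, a phosphatase that switches off ERK kinases, had 3.24, 5.41, 6.16 and 5.15 FPKM in ADX 1 to 4, against 2.43, 2.58, 2.53 and 2.29 FPKM in sham 1 to 4, with ADX 1 the lowest ADX library (log2 change 0.98 ± 0.23 (SE), adjusted p = 0.00962). Igfbp3, a binding protein of insulin-like growth factors, had 13.8, 12.2, 13.1 and 12.2 FPKM in ADX 1 to 4, against 10.1, 7.26, 7.81 and 7.78 FPKM in sham 1 to 4, without overlap (log2 change 0.65 ± 0.15 (SE), adjusted p = 0.00991).

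Sult1a1 (chr7:126672865-126676432, reverse strand), a sulfotransferase of phenols and catecholamine-like compounds, had 9.48, 10.8, 11.0 and 10.8 FPKM in ADX 1 to 4, against 6.77, 7.41, 4.88 and 6.63 FPKM in sham 1 to 4. All 4 ADX libraries exceeded all sham libraries (log2 change 0.73 ± 0.12 (SE), adjusted p = 5.64e-04). Mylk4 (chr13:32700834-32783954, reverse strand), a myosin light chain kinase of striated muscle with a daily rhythm, had 178, 234, 231 and 181 FPKM in ADX 1 to 4, against 131, 98.1, 137 and 132 FPKM in sham 1 to 4, with sham 2 the lowest library (log2 change 0.73 ± 0.14 (SE), adjusted p = 0.00369). Ing5, a subunit of histone acetyltransferase complexes, rose by 0.72 on the log2 scale (adjusted p = 0.00509). The calls of Dusp7, Sult1a1, Mylk4 and Ing5 were kept in every fit that left out 1 library. They were also kept without the 3 libraries that share no exact values, but all were lost in the fit of the 8 libraries alone.

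Aldh1a7, an aldehyde dehydrogenase gene, and Bglap2, an osteocalcin gene, were among the largest rises at low levels. Aldh1a7 had 1.58, 0.784, 1.29 and 1.15 FPKM in ADX 1 to 4, against 0.231, 0.442, 0.529 and 0.362 FPKM in sham 1 to 4 (log2 change 1.61 ± 0.42 (SE), adjusted p = 0.0195), and Bglap2 had 3.67, 3.36, 2.99 and 3.59 FPKM in ADX 1 to 4, against 0.471, 2.18, 2.03 and 1.49 FPKM in sham 1 to 4 (log2 change 1.34 ± 0.30 (SE), adjusted p = 0.00758). Neither overlapped between the groups, but Bglap2 lost its call without sham 1 (adjusted p = 0.0631) and Aldh1a7 without sham 1, ADX 1 or ADX 3. Bglap2 was listed at 0 in all 7 WT libraries at ZT0. Both genes have near-identical copies, Aldh1a1 and Bglap, and their reads may be shared, as may those of the pseudogene Rpl38-ps2 (1.01). Tmem158, Amotl2 and Reck completed the 12 largest rises, counted among genes with a mean of at least 1 FPKM in ADX or sham muscle, no overlap, no library at 0 and no predicted symbol, at 0.85, 0.69 and 0.67. Amotl2 lost its call without sham 2, sham 3 or ADX 4, and Tmem158 and Reck each lost it in 6 of the 8 fits. Rab27a, a small GTPase of vesicle secretion, and Sfn, the adaptor 14-3-3 sigma, were under 1 FPKM in all 8 libraries and were chosen after their values were seen. Rab27a had 0.264, 0.553, 0.628 and 0.537 FPKM in ADX 1 to 4, against 0.0931, 0.132, 0.255 and 0.141 FPKM in sham 1 to 4 (log2 change 1.63 ± 0.30 (SE), adjusted p = 0.00217), and Sfn had 0.662, 0.654, 0.638 and 0.599 FPKM in ADX 1 to 4, against 0.31, 0.393, 0.331 and 0.166 FPKM in sham 1 to 4 (log2 change 1.13 ± 0.19 (SE), adjusted p = 0.00134). Both were higher in every ADX library than in any sham library and kept their calls in every fit that left out 1 library. They also kept them without the 3 libraries that share no exact values, but not in the fit of the 8 libraries alone.

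Some genes passed with libraries listed at 0, for which no fold is given. Arrdc2, an arrestin-like gene known to respond to glucocorticoids, had 1.36, 17.8, 18.4 and 5.35 FPKM in ADX 1 to 4, against 1.31, 0, 0.985 and 0.397 FPKM in sham 1 to 4 (adjusted p = 0.0193). ADX 1 was at the level of sham 1, and the call was lost without sham 2, ADX 2 or ADX 3. Cdo1, which oxidises cysteine on the way to taurine, had 2.69, 1.68, 1.99 and 2.13 FPKM in ADX 1 to 4, against 0, 0.777, 1.01 and 0.0706 FPKM in sham 1 to 4 (adjusted p = 0.00563), without overlap. Snord104, a small nucleolar RNA, had 1.29, 1.08, 2.13 and 1.67 FPKM in ADX 1 to 4, against 0, 0, 0.639 and 0 FPKM in sham 1 to 4 (adjusted p = 0.00447), with 3 of 4 sham libraries at 0.

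**Figure D2:**
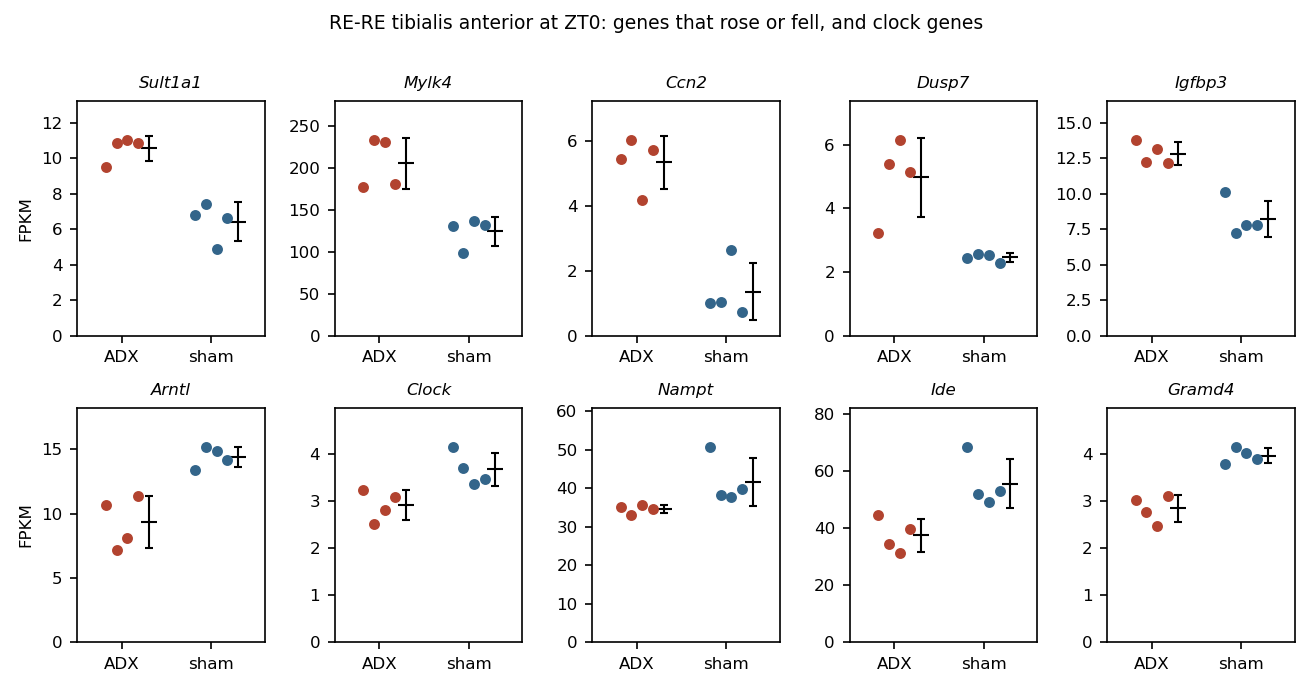
FPKM (linear y axis, each panel on its own scale) of Sult1a1, Mylk4, Ccn2, Dusp7, Igfbp3, Arntl, Clock, Nampt, Ide and Gramd4 in the 4 RE-RE ADX and 4 RE-RE sham libraries at ZT0, with 1 point per library and a cross for the mean ± SD. The first 5 genes lie higher in all ADX libraries, and the other 5 lie lower in all of them.

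Arntl (chr7:113207465-113314126, forward strand), the gene restored in these mice, was lower in every ADX library without passing the test. It had 10.7, 7.22, 8.13 and 11.4 FPKM in ADX 1 to 4, against 13.4, 15.2, 14.8 and 14.2 FPKM in sham 1 to 4. WT mice at the same time had 5.82 to 9.28 FPKM in WT ADX and 14.2 to 18.8 FPKM in WT sham. The RE-RE groups did not overlap, and the fitted log2 change was -0.65 ± 0.81 (SE, adjusted p = 0.716). The SE of this gene is wide because all 47 libraries share 1 estimate of spread, which takes in ZT12 libraries near 0. On log2(FPKM + 1) the change was -0.59 with an adjusted p of 0.0439, and in the fit of the 8 libraries alone the adjusted p was 0.0961. At ZT12 Arntl was 0.985, 3.99, 2.72 and 1.79 FPKM in RE-RE ADX, against 0.327, 0, 0 and 0 FPKM in RE-RE sham.

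Over all tested genes 3.89% fell and 1.56% rose. Of 19 core clock genes, 2 fell, 0 rose, and the median change was near 0. Of those that fell, Clock, the partner of Arntl, had 3.23, 2.52, 2.80 and 3.08 FPKM in ADX 1 to 4, against 4.15, 3.71, 3.36 and 3.47 FPKM in sham 1 to 4 (log2 change -0.34 ± 0.093 (SE), adjusted p = 0.0291), and lost its call without sham 1, sham 2, ADX 2 or ADX 3. None of the 19 passed without the 3 libraries that share no exact values. Nfil3, a repressor that binds D-box elements, had 9.55, 6.10, 8.24 and 13.1 FPKM in the ADX mice and 15.1, 14.5, 24.4 and 15.5 FPKM in the sham mice, which did not overlap and did not pass (log2 change -0.93 ± 0.33 (SE), adjusted p = 0.0857). Dbp, the activator at the same elements and a direct target of Arntl, had 11.4, 28.6, 19.4 and 11.7 FPKM in ADX 1 to 4, against 11.9, 9.97, 10.7 and 13.1 FPKM in sham 1 to 4. ADX 2 and 3 were high, ADX 1 and 4 lay within the sham range, and the gene did not pass (adjusted p = 0.843). Per1, which both the clock and glucocorticoids induce, had 3.28, 7.49, 7.26 and 2.86 FPKM in the ADX mice and 4.98, 0, 1.42 and 2.87 FPKM in the sham mice, with overlapping groups. Per2 (adjusted p = 0.192), Nr1d1 (0.594) and Cry1 (0.285) did not pass. Nampt, the clock-driven enzyme of NAD synthesis, had 35.2, 33.1, 35.6 and 34.7 FPKM in ADX 1 to 4, against 50.8, 38.3, 37.6 and 39.9 FPKM in sham 1 to 4 (log2 change -0.25 ± 0.075 (SE), adjusted p = 0.0386). Its call was lost without sham 1 and without each of ADX 1 to 4, and sham 1 was its highest library. Nampt and Mylk4 were the only 2 of 16 genes of muscle rhythmic output to pass.

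Of 28 listed targets of the glucocorticoid receptor, 2 rose (Sult1a1 and Mt1) and 0 fell by limma. Over all tested genes 1.56% rose and 3.89% fell, so 0 lower among 28 genes does not set these targets apart. At an unadjusted p under 0.05, 5 were higher and 0 lower, against 21% of all tested genes in either direction. A positive change was found for 23, with a median log2 change of 0.196 against -0.012 over all tested genes. Of the 28, 7 had a library listed at 0. Fkbp5, the co-chaperone widely used as a readout of the receptor, had 7.80, 1.91, 1.83 and 10.4 FPKM in ADX 1 to 4, against 6.50, 4.38, 4.36 and 1.01 FPKM in sham 1 to 4. ADX 1 and 4 lay above every sham library and ADX 2 and 3 lay within the sham range (adjusted p = 0.912). Tsc22d3, the leucine zipper target GILZ, had 37.5, 40.1, 43.5 and 35.8 FPKM in ADX 1 to 4, against 41.5, 31.1, 30.5 and 40.5 FPKM in sham 1 to 4, also overlapping (adjusted p = 0.582). Cebpb, a transcription factor that glucocorticoids and cyclic AMP induce, had 26.5, 27.9, 31.1 and 27.0 FPKM in ADX 1 to 4, against 16.7, 15.3, 22.8 and 16.0 FPKM in sham 1 to 4, which did not overlap and did not pass (log2 change 0.69 ± 0.26 (SE), adjusted p = 0.116). The differences of Zbtb16 (adjusted p = 0.631), Klf9 (0.308), Klf15 (0.57) and Sgk1 (0.141) were not past the test. Of 8 genes of corticosteroid receptors and handling, 2 fell, both chaperone genes of the receptor complex. Fkbp4 had 53.5, 57.8, 53.2 and 55.2 FPKM in ADX 1 to 4, against 60.7, 60.4, 61.3 and 59.1 FPKM in sham 1 to 4 (log2 change -0.14 ± 0.038 (SE), adjusted p = 0.0287), and Hsp90ab1 changed by -0.18 (adjusted p = 0.0289). Both lost their call without sham 1, sham 2 or ADX 1, 3 or 4. The receptor gene Nr3c1 was 19.4 to 24.2 FPKM in ADX muscle and 20.9 to 26.7 FPKM in sham muscle (adjusted p = 0.531).

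Mt1, a metallothionein that binds zinc and that glucocorticoids induce, had 4.82, 3.23, 3.91 and 20.9 FPKM in ADX 1 to 4, against 0, 0.382, 9.58 and 0 FPKM in sham 1 to 4 (adjusted p = 0.00669). Sham 3 lay above 3 of the 4 ADX libraries, so the groups overlapped, and the call was lost without sham 1 (adjusted p = 0.0589). Its neighbour Mt2 was listed at 0 in 7 of the 8 libraries and at 23.0 FPKM in ADX 4. Map3k6, a stress-activated kinase, had 0.176, 0.936, 0.903 and 0.901 FPKM in ADX 1 to 4, against 0.272, 0, 0.426 and 0 FPKM in sham 1 to 4 (adjusted p = 0.0195), and was named after its promoter had been searched. It lost its call without sham 2, sham 4 or ADX 2, 3 or 4, and ADX 1 lay within the sham range. The promoter windows of both are shown, because they hold a palindromic element of the glucocorticoid receptor, searched as GNACA, any 3 bases and TGTNC on both strands and given here in capitals. They lie at chr8:94178839-94179138 for Mt1 and chr4:133240568-133240867 for Map3k6, both on the forward strand of GRCm38.p6.
Mt1: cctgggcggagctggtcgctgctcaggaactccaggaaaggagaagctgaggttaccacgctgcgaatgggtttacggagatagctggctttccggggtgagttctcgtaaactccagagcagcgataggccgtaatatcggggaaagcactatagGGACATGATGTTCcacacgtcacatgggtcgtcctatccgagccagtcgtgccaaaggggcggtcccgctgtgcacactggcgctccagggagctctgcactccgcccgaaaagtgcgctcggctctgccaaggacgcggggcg
Map3k6: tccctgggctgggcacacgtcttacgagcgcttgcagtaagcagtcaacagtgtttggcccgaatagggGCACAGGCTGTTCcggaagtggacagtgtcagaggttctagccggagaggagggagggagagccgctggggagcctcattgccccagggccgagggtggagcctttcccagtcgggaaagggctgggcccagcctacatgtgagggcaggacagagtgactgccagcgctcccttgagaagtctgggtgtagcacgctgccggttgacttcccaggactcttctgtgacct
The element begins 94 bases before the start in Mt1 and 181 bases before it in Map3k6. It was present on either strand in 4 of 168 windows (2.38%) of genes that rose, 1 of 435 (0.23%) of genes that fell and 0.38% of the windows of tested genes. The 4 windows belong to Map3k6, Mt1 and Pot1b, which has 2 of them, and the 1 window to Zgpat. The D-box (TTATGTAA or TTACGTAA) was in 1.19% of windows of genes that rose and 2.07% of windows of genes that fell, against 0.68% of the windows of tested genes. The cyclic AMP element (TGACGTCA) was in 1.79%, 3.45% and 3.07% of the same windows. These shares are descriptions without a test.

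Of 18 genes of the adrenergic and cyclic AMP response, 1 rose, 1 fell (Ppargc1a) and 14 had a negative change. Of 11 immediate stress and handling genes, 0 passed by limma and 1 had an unadjusted p under 0.05, against 2522 (21%) of all tested genes. Of 19 atrophy genes, which mark breakdown of muscle protein, 3 fell (Bnip3, Psmd11 and Usp14), with a median log2 change of -0.005. Over all tested genes 3.89% fell and 1.56% rose. The 2 muscle ubiquitin ligases Fbxo32 (atrogin-1) and Trim63 (MuRF1) did not pass, at adjusted p values of 0.602 and 0.942. Fbxo32 had 53.1, 56.7, 40.9 and 56.9 FPKM in ADX 1 to 4, against 33.7, 87.1, 95.0 and 59.8 FPKM in sham 1 to 4, with overlapping groups. Usp14 lost its call in 6 of the 8 fits that left out 1 library, Psmd11 lost it without sham 1 (adjusted p = 0.0502), and 1 of the 3 genes, Bnip3, passed without the 3 libraries that share no exact values.

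In 3 further families, 12 of 37 proteasome subunits, 3 of 8 chaperonin genes and 5 of 20 aminoacyl-tRNA synthetases fell. Over all tested genes 3.89% fell. All 3 counts were 0 in the fit of the 8 libraries alone, which called 4 genes in all. These families were put together after values had been seen and have no test of their own. Of the proteasome subunits 0 rose and 32 had a negative change, with a median log2 change of -0.128. Of the 37, 17 were lower without overlap, where 13.2% of all tested genes did not overlap in either direction. Psmd11, a lid subunit known to raise assembly of the 26S proteasome, had 13.7, 14.1, 14.6 and 14.4 FPKM in ADX 1 to 4, against 17.2, 16.6, 15.4 and 15.8 FPKM in sham 1 to 4 (log2 change -0.19 ± 0.042 (SE), adjusted p = 0.00701). Psmb1, a subunit of the core particle, had 71.4, 73.7, 75.1 and 74.8 FPKM in the ADX mice and 87.2, 84.1, 79.8 and 86.7 FPKM in the sham mice (log2 change -0.19 ± 0.043 (SE), adjusted p = 0.00758). The ADX and sham values of both genes did not overlap. The count of 12 rested on single libraries: it was 1 without sham 1, 6 without ADX 2, 19 without sham 3 and 2 without the 3 libraries that share no exact values. At ZT12, 11 proteasome genes fell and 0 rose in RE-RE ADX against RE-RE sham, where 3.55% of all genes fell and 1.77% rose. In WT mice at ZT0, 1 fell and 4 rose, where 19.4% and 12.6% of all genes did, and 4 of the 37 had a difference past the test between the genotypes, all lower in RE-RE, where 3.29% of all genes were.

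Of the 8 genes of the cytosolic chaperonin, the ring that folds actin and tubulin, 3 fell (Tcp1, Cct2 and Cct7) and all 8 had a negative change. Tcp1 had 32.1, 32.2, 31.9 and 32.0 FPKM in ADX 1 to 4, against 37.6, 34.3, 34.0 and 36.5 FPKM in sham 1 to 4, without overlap (log2 change -0.15 ± 0.027 (SE), adjusted p = 0.00196). The count was 5 without sham 2 or sham 3, and 2 without the 3 libraries that share no exact values. In the test of RE-RE against WT effects, 6 of the 8 were lower in RE-RE, where 3.29% of all genes were. In WT mice at ZT0, 2 of the 8 rose and 0 fell, with a median log2 change of 0.085. Over all tested genes 12.6% rose and 19.4% fell in WT. Age and surgery cannot be told apart within those WT mice, as given below. Of 20 cytosolic aminoacyl-tRNA synthetases, which charge tRNAs, 5 fell and 0 rose, led by Eprs at -0.25 (adjusted p = 0.00217), and 19 had a negative change. That count was 2 without sham 1, 3 without ADX 1, 2 or 4, 8 without sham 3 and 2 without the 3 libraries that share no exact values. The mitochondrial chaperones Hspa9 (-0.25) and Hspd1 (-0.23) fell, and so did Vegfa, the vessel growth factor (-0.41), Insr, the insulin receptor (-0.33), and Il6st, the shared receptor chain of the interleukin-6 family (-0.29). These 5 were chosen after their values were seen, and Hspd1 and Vegfa lost their calls without ADX 2. Cytosolic ribosomal proteins did not move together, with 1 of 79 higher (Rps21) and 2 lower (Rps24 and Rpl5), and each of these 3 lost its call without sham 1. Some ribosomal genes share reads with pseudogenes.

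**Figure D3:**
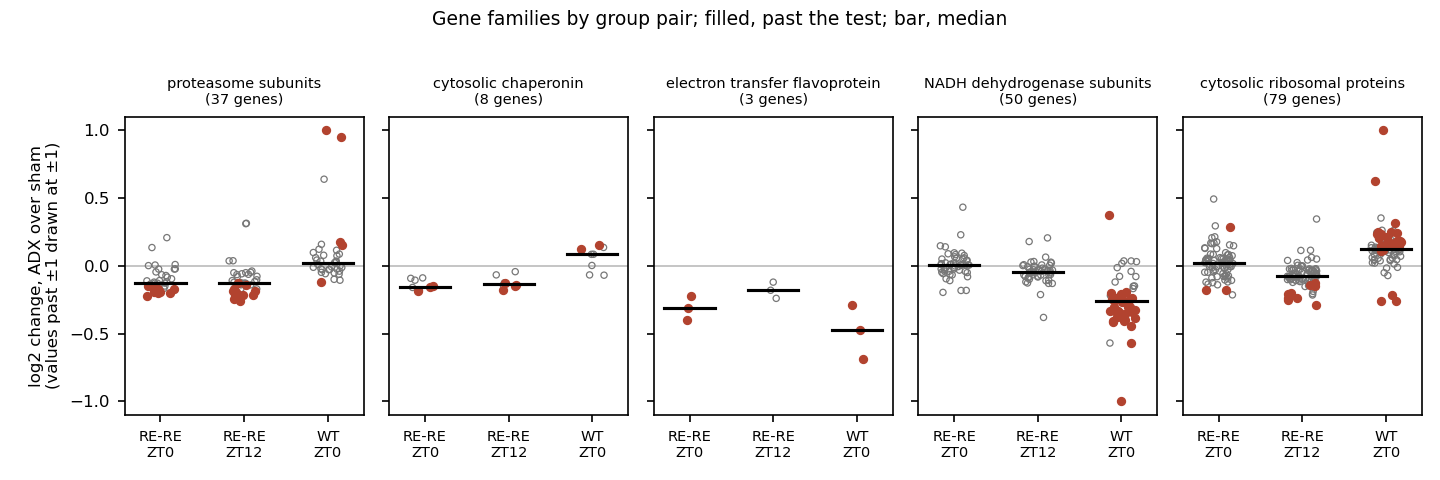
Log2 change after ADX (y axis, values beyond 1 drawn at the edge) of each gene of 5 families, given for RE-RE at ZT0, RE-RE at ZT12 and WT at ZT0, with filled points for genes past the test and a bar at the median. The proteasome and chaperonin genes lie mostly below 0 in both RE-RE comparisons, and the NADH dehydrogenase genes lie below 0 in WT.

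Of 22 genes of glucose uptake, glycogen and fuel switching, 0 passed by limma and 4 had an unadjusted p under 0.05, with a median log2 change of -0.13. Likewise 0 of 18 lipid synthesis genes, 0 of 20 fibre-type genes and 0 of 14 calcium handling genes passed, with 2, 1 and 1 of them at an unadjusted p under 0.05. Among 13 mitochondrially encoded genes and 20 interferon and MHC class I genes, 0 passed by either measure. Sdha (oxidative phosphorylation), Myh3 (denervation and regeneration), Slc7a8 (amino acid metabolism) and Hsph1 (heat shock) were the only members of their lists to pass, and each lost its call in 6 or 7 of the 8 fits that left out 1 library. Of the heat shock list, 13 of 14 had a negative change, with a median of -0.189.

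Markers of other cell types passed the test for 3 genes, all higher in ADX muscle. Over all tested genes 1.56% rose. Of 13 fibroblast and matrix genes, 1 rose (Dcn, the proteoglycan decorin), 12 had a positive change, and the summed level was 790.4 to 1022 FPKM in ADX muscle and 412 to 911 FPKM in sham muscle. Dcn lost its call without sham 1, sham 4 or ADX 1, 2 or 4. All 7 tendon markers and all 12 macrophage markers had a positive change, 0 passed by limma and 0 and 2 of them had an unadjusted p under 0.05. The summed macrophage level was 49.5 to 60.5 FPKM in ADX muscle and 34.2 to 56.0 FPKM in sham muscle. Among 8 adipocyte markers, Plin1 (0.997, 0.512, 0.393 and 0.691 FPKM in the ADX mice and 0, 0.27, 0.41 and 0 FPKM in the sham mice) and Retn, the hormone resistin, rose, but 5 of the 8 had libraries listed at 0. Cfd, the adipocyte protease adipsin, had 9.70, 9.01, 10.8 and 12.5 FPKM in ADX 1 to 4, against 0, 14.3, 16.3 and 2.36 FPKM in sham 1 to 4, with the same split of the sham group as Pdk4. Plin1 lost its call without sham 1 (adjusted p = 0.0685) and Retn in 6 of the 8 fits. Endothelial, smooth muscle, erythroid and Schwann cell markers had 0 of 33 genes past the test by limma and 3 at an unadjusted p under 0.05. The part of other cells in the changes of Ccn2, Igfbp3 and Lpl, which such cells also express, was not tested.

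**Figure D4:**
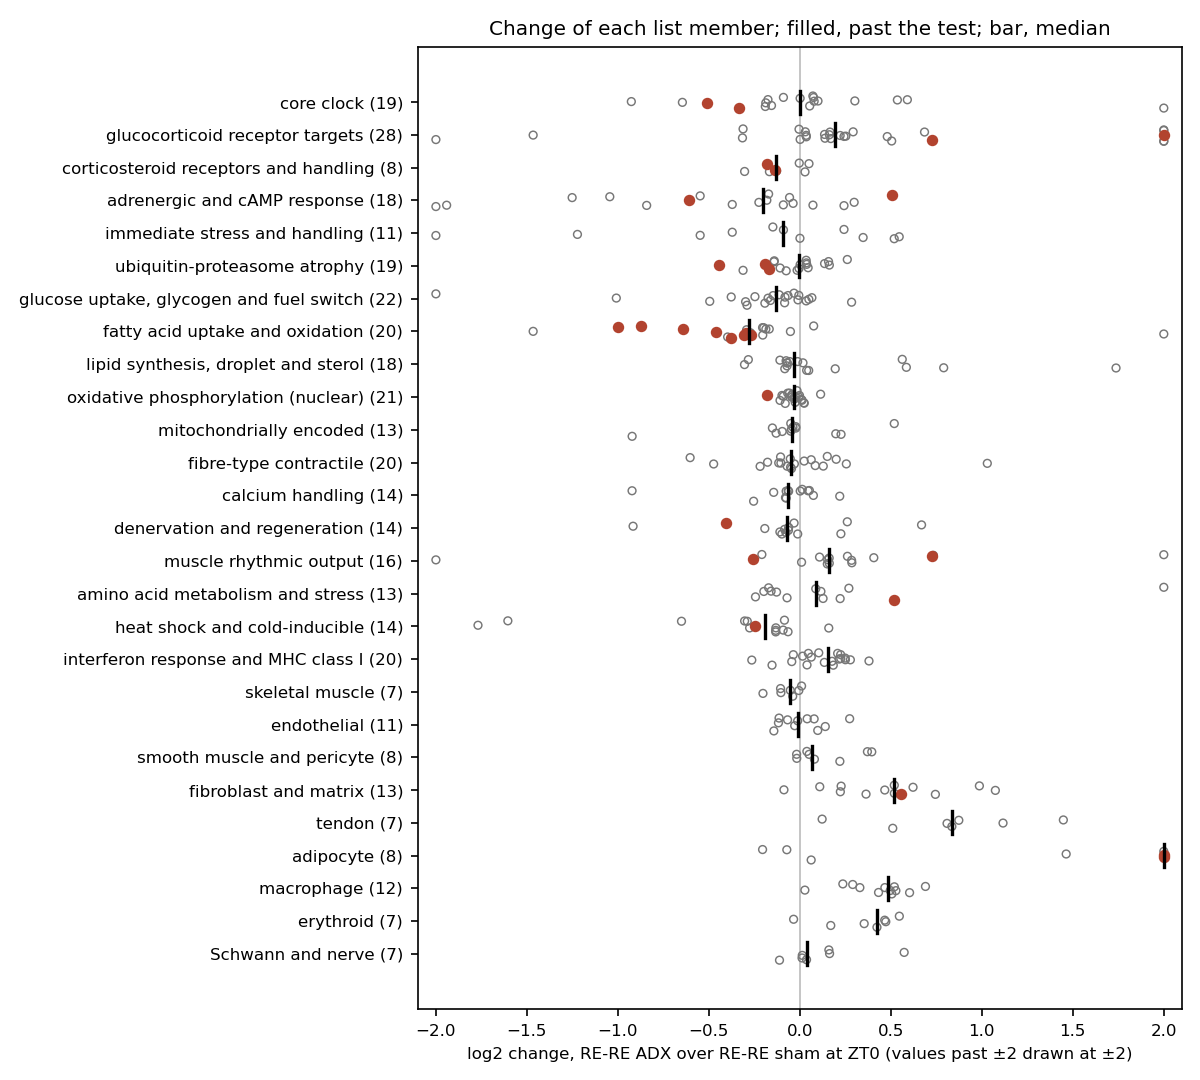
Log2 change in RE-RE ADX against RE-RE sham at ZT0 (x axis, values beyond 2 drawn at the edge) of every tested member of each gene list (rows), with filled points for genes past the test and a bar at the list's median. The fatty acid list has 8 filled points, all below 0.

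In WT mice at ZT0, whose libraries are none of the 8, 3838 of 12000 genes (32%) passed the test after ADX. Of these 2322 fell and 1516 rose, which is 19.4% and 12.6% of all tested genes. Of the 467 genes that fell in RE-RE, 202 (43.3%) also fell in WT and 11 rose there. Of the 187 that rose in RE-RE, 45 (24.1%) also rose in WT and 14 fell. The shared calls are 6.44% of those in WT. In a direct test of the difference between the 2 effects, 1280 genes (10.7%) passed, 885 (7.38%) with the effect in RE-RE above that in WT and 395 (3.29%) below it. Of the 654 genes, 117 passed that test. Without the libraries that share no exact values it called 334 genes.

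The change of mitochondrial genes after ADX differed between the RE-RE and WT mice used here. The WT ADX mice were 12 to 15 weeks old and the WT sham mice 9 to 11 weeks, without overlap. Within WT mice at ZT0, age and surgery can therefore not be told apart. A difference of substrain between the 2 WT groups, a question raised below for Nnt, was not tested. The difference from RE-RE is thus not shown to come from genotype alone. Of 21 nuclear genes of oxidative phosphorylation, 1 fell in RE-RE and 20 fell in WT, with median log2 changes of -0.03 and -0.37. Of the 21, 15 differed, each with the effect in RE-RE above that in WT. Over all tested genes 3.89% fell in RE-RE and 19.4% in WT, and 7.38% differed in that direction. Of 13 mitochondrially encoded genes, 0 fell in RE-RE and 9 in WT, with medians of -0.046 and -0.608, and 7 differed. NADH dehydrogenase subunits gave 0 lower of 50 in RE-RE and 35 in WT, and 25 differed. The count of 15 was 5, and that of 7 was 2, without the libraries that share no exact values. With age as a covariate the count of 15 was 9. Of 20 fatty acid genes, 8 fell in RE-RE and 14 in WT, and 3 differed (Ppara, Acadvl and Ppard). Interferon and MHC class I genes had 0 past the test in RE-RE and 10 higher in WT (medians 0.156 and 0.812). Over all tested genes 1.56% rose in RE-RE and 12.6% in WT. The direct test put 3 of the 20 lower in RE-RE (Ifi35, Tapbp and H2-K1), where 3.29% of all genes were. That count ranged from 1 to 6: it was 6 without WT ADX 1, 5 without WT ADX 2, and 1 without WT sham 1 or 4, WT ADX 3, sham 2 or 4, or ADX 1, 3 or 4.

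**Figure D5:**
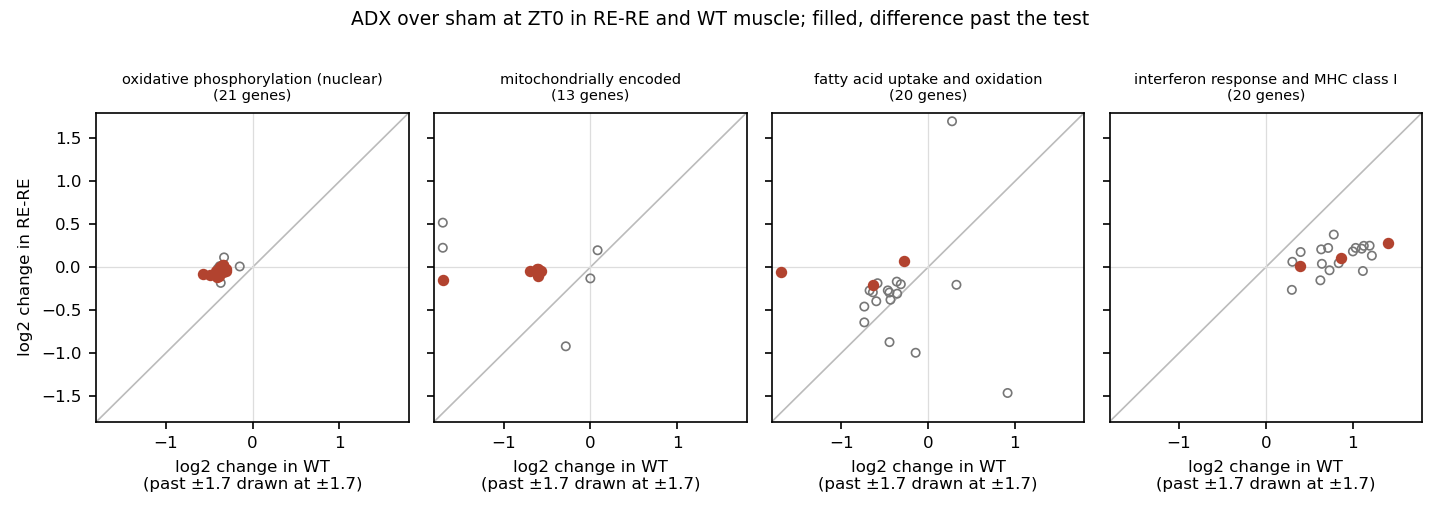
Log2 change after ADX at ZT0 in RE-RE (y axis) against that in WT (x axis) for genes of 4 lists, with values beyond 1.7 drawn at the edge and filled points where the difference between genotypes passed the test. Oxidative phosphorylation and mitochondrially encoded genes lie near 0 in RE-RE and below 0 in WT.

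Among clock genes, Dbp, which did not pass in RE-RE, had a difference past the test (adjusted p = 0.00877), with 4.01, 4.13 and 13.1 FPKM in WT ADX and 0, 0, 0 and 11.9 FPKM in WT sham, of which 3 were listed at 0. Per3 and Hlf differed by -0.88 and -0.70. Ide differed by -0.52 (adjusted p = 0.0434), with 63.5 to 69.9 FPKM in WT ADX and 56.8 to 77.3 FPKM in WT sham. Mylk4, with 98.3 to 161 FPKM in WT ADX and 115 to 147 FPKM in WT sham, differed by 0.71 (adjusted p = 0.0272).

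The genes with the smallest p for the genotype difference were low or listed at 0 in WT ADX libraries. Tmem37, Timp4, Lrrc52, Lrg1 and Inmt were listed at 0 in all 3 WT ADX libraries, whereas all 4 WT sham libraries were above 0. For Timp4, an inhibitor of metalloproteases, the values were 9.32, 13.3, 15.4 and 16.6 FPKM in the ADX mice and 11.3, 7.36, 10.5 and 6.03 FPKM in the sham mice of the RE-RE genotype, and WT sham mice had 0.695 to 11.4 FPKM. Plin3, a lipid droplet coat protein, was 0.19 to 1.23 FPKM in WT ADX and 13.3 to 15.4 FPKM in WT sham. The RE-RE values of Plin3 were 15.2, 9.12, 13.8 and 14.7 FPKM in the ADX mice and 8.41, 11.0, 18.9 and 9.44 FPKM in the sham mice. Nnt, the proton-pumping transhydrogenase of mitochondria, was listed at 0 in 3 of 3 WT ADX libraries, against 7.51 to 15.0 FPKM in WT sham, and it was named after its values were seen (difference adjusted p = 2.31e-04). The RE-RE values of Nnt were 13.0, 8.11, 16.2 and 14.3 FPKM in the ADX mice and 15.2, 22.1, 14.5 and 6.55 FPKM in the sham mice. Nnt carries a deletion in the C57BL/6J substrain but not in other C57BL/6 lines. Whether the WT ADX and WT sham mice were of 1 substrain was not tested.

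In RE-RE mice at ZT12, in libraries other than the 8, 638 genes (5.32%) passed the test after ADX. Of these, 177 were called in the same direction at ZT0 (148 lower and 29 higher), which is 27.1% of the ZT0 calls and 27.7% of the ZT12 calls, and 2 were opposite. A change of the same sign at ZT12 was found for 90.2% of the 654 genes, against 67.4% of all genes. The difference between the 2 times, tested directly, passed for 8 genes (0.0667%), 3 (0.025%) with a higher and 5 (0.0417%) with a lower effect at ZT0, with 838 at an unadjusted p under 0.05. That count was 13 without sham 1, 19 without sham 3, 15 and 13 without ZT12 sham 5 and 7, 17 and 16 without ZT12 ADX 5 and 8, and 25 without the libraries that share no exact values.

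Mylk4 changed in opposite directions at the 2 times. It rose at ZT0, as given, and fell at ZT12 (log2 change -0.48 ± 0.14 (SE), adjusted p = 0.0424), where RE-RE ADX had 384, 248, 286 and 397 FPKM, against 383, 485, 447 and 499 FPKM in RE-RE sham. The effect at ZT0 exceeded that at ZT12 by 1.21 ± 0.20 on the log2 scale (SE, adjusted p = 0.00257). Its level was higher at ZT12 than at ZT0 in both conditions. Sult1a1 rose at ZT0 and had 15.8, 11.3, 13.0 and 17.4 FPKM in RE-RE ADX, against 15.4, 17.1, 17.0 and 17.4 FPKM in RE-RE sham at ZT12, a time difference of 0.96 (adjusted p = 0.00257). Arntl, Rreb1, Dyrk2, Ypel2 and Gramd4 had a lower effect at ZT0. Dyrk2, a kinase gene, had 17.9, 15.7, 13.7 and 17.6 FPKM in the ADX mice and 20.4, 20.5, 15.8 and 22.0 FPKM in the sham mice at ZT0, and 10.8, 14.1, 14.4 and 10.8 FPKM in ADX and 7.78, 6.83, 8.31 and 6.70 FPKM in sham mice at ZT12. Ypel2 had 6.10, 4.22, 4.93 and 5.80 FPKM in the ADX mice and 7.50, 7.34, 6.94 and 6.63 FPKM in the sham mice at ZT0, and 2.86, 4.52, 4.17 and 3.23 FPKM in ADX and 2.29, 1.98, 2.17 and 2.45 FPKM in sham mice at ZT12. For Dyrk2 and Ypel2 the sham values were higher at ZT0 than at ZT12 and the ADX values lay closer together across the 2 times.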

How the data were processed

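RNA of the tibialis anterior of 8 RE-RE mice at ZT0, and of 15 comparison mice, was analysed within the deposited table of 13500 genes and 47 libraries. Per the labels' protocols, total RNA was read as 60 bp single-end reads, on average 25 M per sample. HISAT2 2.1.0 and featureCounts 1.6.2 are named in the submitters' processing notes with the GRCm38 build, beside edgeR 3.30.0, and reads were handled with Trim Galore 0.5.0 and FastQC 0.11.8. The annotation release and strand setting are not given in the sources used here, so reads of overlapping antisense genes cannot be told apart. The authors deposited FPKM values on a log2 scale, whose lowest value equals log2 of 0.01. They were read as log2(FPKM + 0.01), and that lowest value as listed at 0. A log2 change is on this scale and is large for genes near 0. Symbols matched 13441 IDs in GENCODE M21 and 59 did not match.

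No counts were used. Depth came from fitting low values of the 8 libraries as whole multiples of 1 read, in genes at 0 in 30 or more of the 47 libraries. With each value left out of that fit in turn, 97 of 103 were whole within 0.05. Of other genes' values 7.89% to 11.2% were whole, which is near what that tolerance gives by chance, so no count test was run.

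In R 4.3.3, limma 3.58.1 fitted 12 group means to all libraries (eBayes with trend, 35 residual degrees of freedom). Genes reaching 1 FPKM in at least 3 libraries were tested, two-sided p-values were adjusted by Benjamini-Hochberg within each contrast, and an adjusted p under 0.05 counted as passing. The model was tested on simulated data, but the outcome is not reported here and is not used in support of any call. Alternatives were log2(FPKM + 1), no filter, equal library medians, a model of the compared groups alone, age in weeks as a covariate, a replicate block, no genes at 0, no libraries sharing at most 1 exact value with their group, and each library left out in turn. Named genes were the 12 with the largest rise and the 12 with the largest fall that passed with a mean of at least 1 FPKM in either group and without overlap, values at 0 or predicted symbols, and up to 4 each way with values at 0. Added were up to 5 members of each list past the test and at least 2 with the smallest p, Arntl, and 8 genes each with the smallest adjusted p for the differences from WT and from ZT12. A few genes picked this way were left out and are not reported here. Other genes in the text were chosen after their values were seen. The members and lists were chosen with earlier results of these data known. Promoter windows are from RefSeq (GRCm38.p6). Python 3.11.15 with numpy 2.4.6, pandas 2.3.3 and matplotlib 3.10.9 made tables and figures.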

Additional observations from a re-analysis of the deposited data

Results flagged for a closer look

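Of 184 groups of 4 libraries examined for the 92 named genes, 13 held a library whose gap to the nearest other value took up most of the group's range, and chance gives such a gap in about 5% of groups. Among ADX libraries these were Sult1a1 in ADX 1 (9.48 FPKM, others 10.8 to 11.0), Ppargc1a in ADX 2 (3.94 FPKM, others 4.69 to 4.73), Acaca in ADX 2 (0.593 FPKM), Ndufv1 in ADX 2 (144 FPKM), Lum in ADX 3 (48.6 FPKM), Mt1 in ADX 4 (20.9 FPKM) and Junb in ADX 4 (listed at 0, others 10.8 to 12.0 FPKM). Among sham libraries they were Atf4 in sham 1 (88.3 FPKM), Mylk4 in sham 2 (98.1 FPKM, others 131 to 137) and 4 genes in sham 3. The 4 were Ccn2 (2.65 FPKM, others 0.728 to 1.03), Mt1 (9.58 FPKM), Snord104 (0.639 FPKM) and Snord42a (0.198 FPKM).

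Named genes whose ADX effect in RE-RE differed from that in WT by the direct test (limma, Benjamini-Hochberg) are given as the RE-RE effect minus the WT effect on the log2(FPKM + 0.01) scale. Among the largest rises and falls these were Ccn2 (2.04), Aldh1a7 (2.73), Bglap2 (1.34), Rpl38-ps2 (1.05), Mylk4 (0.71), Ing5 (1.07), Tceal5 (-1.02) and Ide (-0.52). Bglap2 was listed at 0 in every WT library at ZT0, so its value is the RE-RE effect alone. Of list members these were Pfkfb1 (0.86), Acacb (0.40), Ndufv1 (0.31), mt-Co1 (0.51), Flt1 (0.44) and Rreb1 (0.48). Genes with libraries listed at 0 gave values that depend on the offset and are no folds: Arrdc2 (9.51), Cdo1 (5.16), Mt1 (6.93), Cilp2 (-4.16), Plin1 (3.91), Retn (3.86), Tmem37 (7.64), Timp4 (8.80), Lrrc52 (7.42), Lrg1 (8.86) and Inmt (7.40). Tacc2 (2.44), Plin3 (4.64) and Gm11716 (3.38) had low values in WT ADX without being listed at 0.

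The ADX effect at ZT0 minus that at ZT12 in RE-RE passed the test for Sult1a1 (0.96), Mylk4 (1.21), Rreb1 (-0.66), Dyrk2 (-1.02), Ypel2 (-1.15) and Gramd4 (-0.72). It also passed for Arntl (-7.09) and Snord42a (8.00), which have libraries listed at 0 at ZT12, so these values are no folds.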

How the results depend on the processing

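The 654 calls (187 higher, 467 lower) became 4 (3 and 1) in a model of the compared groups alone, at 2509 genes with an unadjusted p under 0.05. Of these 4, 2 were among the 654. The calls were 85 (20 and 65) without the libraries that share no exact values, with 82 of the 85 among the 654. They ranged from 168 to 1022 (58 to 296 and 110 to 726) on leaving out 1 library. Other settings gave 601 to 701. Replicate numbers did not pair the mice (same-number correlations of 0.051, 0.014, -0.079 and -0.079), and the replicate block called 0, 0 and 0, with 2268 at an unadjusted p under 0.05. The difference from WT (1280, of which 885 higher and 395 lower) was 334, 278 and 56 without those libraries, 494 higher with only the groups compared and 261 lower with age as a covariate. On leaving out 1 library it ranged from 952 to 1389, 661 to 998 and 260 to 415. The time difference (8, 3 and 5) was 2, 0 and 2 with only the groups compared, 25, 10 and 15 without those libraries, and 8 to 19, 3 to 7 and 5 to 12 on leaving out 1 library. Of 1464 values of the 92 named genes, 1198 kept direction and side of the threshold, 246 lost the call, 11 gained it and 9 changed sign. The sign changes were in genes far from the threshold. They were Tmem37 (-0.45) and Plin3 (-0.027) without those libraries, and on leaving out 1 library Tmem37 (-0.1763 to 0.2859), Gm11716 (-0.1153 to 0.0444), Lrg1 (-0.0434 to 0.2682) and Inmt (-0.417 to 0.0043). The causes were not tested. The estimated depth of 19.8 to 35.6 M reads limits genes near 0.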
